A study of Mus musculus with 5 samples.

Results

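The features described here are 12 abundant microRNA features whose signal differed by no more than 2-fold between differentiating and undifferentiated P19C6 cells. They were chosen by measured values, out of 406 microRNA features on the array. The intensity of a feature was the mean of its 3 spots after subtraction of local background, with no scaling between arrays. A feature was taken if it read 1500 or more on each of 5 arrays and if its mean at 4 days lay between 0.5 and 2 times its mean at 0 hour. A further 5 codes (M69, M147, M394, M165 and M11) were left out by name, and 0 of them met both thresholds. The level and the ratio of the 12 features are therefore a description of how they were picked, and no test of them is read as a result. Calls given below come from a test over all features and only describe the 12.

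P19C6 cells were cloned from P19, a line of mouse embryonal carcinoma cells, and neural fate was induced by culture as aggregates in the serum-free medium N2B27. There were 2 arrays of cells after 4 days in N2B27 and 3 arrays of undifferentiated cells at 0 hour, each a single Cy5 hybridisation of amplified RNA on a spotted array. No agent besides N2B27 is named in the titles of either group. The titles number the library 2 on both 4 day arrays and 1 on all 0 hour arrays, while the series text speaks of 2 independent libraries per sample and repeat hybridisations of each. The conflict is not settled here. If the titles hold, the arrays of a group are repeats of 1 library, and library and day cannot be told apart. The spread between arrays may be technical only, and the number of arrays limits the precision. All values come from 1 clonal line, and no sorting of the 4 day aggregates is described.

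MicroRNAs are short RNAs cut from hairpin precursors by Drosha and Dicer, and they guide Argonaute proteins to messenger RNAs that are then repressed. Embryonal carcinoma cells carry microRNAs typical of pluripotent cells, and neural induction is known for the loss of these and the gain of neural ones. Many other microRNAs are made in most cell types. Features that keep their level between 2 states are of practical use because they can serve as a standard for the rest. Which microRNA each code stands for is not paired in the tables used here. A search for the codes among the names of the RefSeq mouse microRNA table matched 0 of 406, so the features are given by code, with no sequence, role or genomic position, and the labelled cell type could not be checked against marker microRNAs.

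Most abundant features lay outside the window. A total of 46 features reached 1500 on every array, 11.3% of all microRNA features. Of these 46, 12 lay inside the window, 11 lay below a ratio of 0.5 and 23 lay above a ratio of 2. The window was not sparsely filled in general, since 156 of the 323 features that were above the detection floor on at least 2 arrays (48.3%) had a ratio within 2-fold. The detection floor, set for each array, lay 2 SD above the average of its spots with a B code, a set that stayed dim on every array, and its highest value was 461. The lowest reading of any of the 12 features on any array was 1626, so all 12 were above the floor on all 5 arrays.

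**Figure D1:**
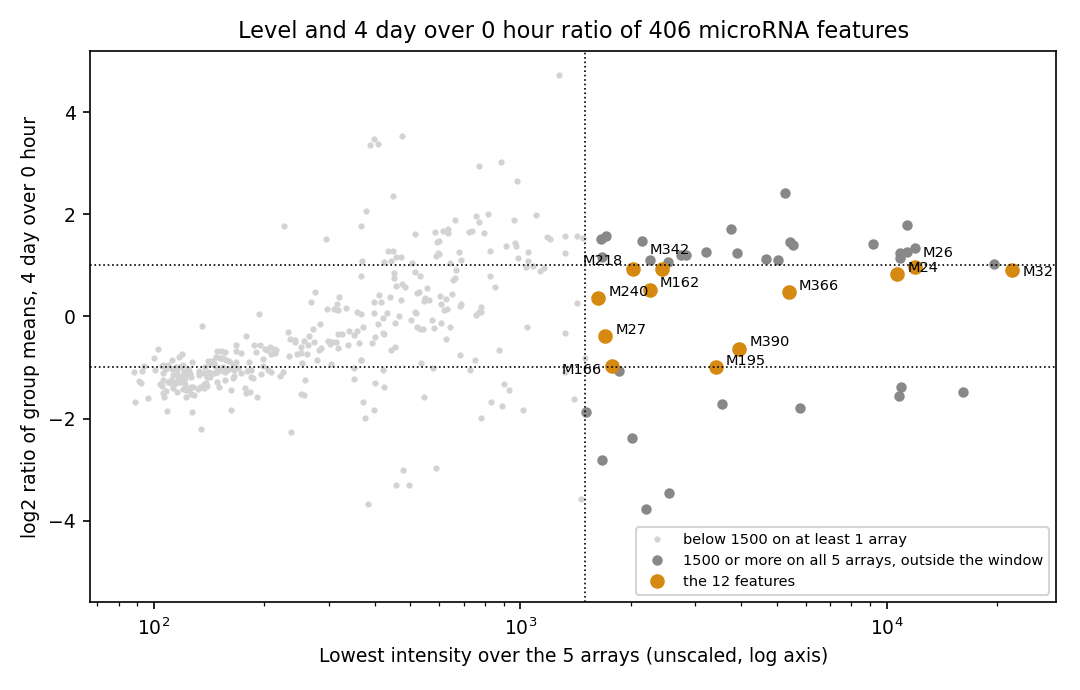
Each point is 1 of 406 microRNA features, with its lowest intensity over the 5 arrays on the x axis (log scale) and the log2 ratio of the 4 day mean over the 0 hour mean on the y axis. The dotted lines mark 1500 and a 2-fold difference either way, the 12 features are labelled by code, and the abundant features nearest to a log2 ratio of 0 are M240, at 0.36, and M27, at -0.38.

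Without scaling, no feature of the set had a ratio close to 1. No feature among the 46 abundant ones, and so 0 of the 12, had a ratio within 1.25-fold of 1, whereas 47 of the 323 detected features did. Within 1.5-fold there were 4 of the 12, namely M240, M27, M366 and M162. The ratio was above 1 for 8 features, from 1.28 to 1.94, and below 1 for 4 features, from 0.50 to 0.77. The set thus held abundant features within 2-fold in both directions on the unscaled arrays. Whether any of them was without change cannot be read from these ratios, since their size depended on the scaling, as described below. The median ratio was 1.41 over the 12 features, 1.99 over the 46 abundant features and 0.81 over the 323 detected features. Whether a lower signal reflects fewer cells of a type or less RNA per cell cannot be told apart in these bulk samples.

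The brightest of the features was M32. Its intensity was 56492 and 57161 on the 4 day arrays, against 22836, 45456 and 22013 on the 0 hour arrays. Both 4 day readings lay above every 0 hour reading, and the 0 hour readings themselves were split, with replicate 2 well above the other two. The group mean was 56826 at 4 days and 30102 ± 13304 at 0 hour (SD, n = 3 arrays), a ratio of 1.89. Its rank among the 406 features was 2 and 3 on the 4 day arrays, against 8, 5 and 5 on the 0 hour arrays, and it was the only 1 of the 12 among the first 10 on every array. Its brightest single spot read 62007, under the scanner limit of 65535, and none of the 12 features had a whole-spot reading at that limit. On the 4 day arrays the SD of pixels within the spots of M32 averaged 10.1% and 7.17% of the reading. Whether single pixels reached the limit, which would compress the 4 day readings of M32, was not tested.

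M24 read 22895 and 35807 at 4 days, against 10642, 26038 and 12796 at 0 hour. The groups overlapped, since replicate 2 of the 0 hour group was brighter than replicate 1 of the 4 day group. M26 read 27726 and 25029 at 4 days, against 12064, 16773 and 11909 at 0 hour. Its groups did not overlap, and its ratio of 1.94 was the closest to the upper limit from inside. M26 also had the smallest spread among undifferentiated arrays, with a coefficient of variation (CV) of 20.4% (n = 3 arrays).

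M390 was the least settled of the 12. It read 28341 and 3961 at 4 days, against 40547, 21492 and 12943 at 0 hour. The 4 day arrays thus differed from each other by 7.16-fold, far more than the ratio of 0.65 between the group means, one lying inside the 0 hour range and the other below it. The CV at 0 hour was 56.5%. Its rank among the 406 features was 11 and 58 on the 4 day arrays and 2, 14 and 10 on the 0 hour arrays. M390 therefore entered the set by the average of 2 unlike readings.

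M195 behaved in a similar way. It read 6603 and 3409 at 4 days, against 11678, 14442 and 3659 at 0 hour. Replicate 3 of the 0 hour group lay between the 4 day readings, while the other 0 hour arrays were well above them. The brightest 0 hour array exceeded the dimmest by 3.95-fold, and the group ratio of 0.504 was the closest to the lower limit from inside.

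The next features by brightness, M366, M342 and M218, had more even 4 day readings, while the CV of M342 at 0 hour was 38.0%. M366 read 9873 and 8772 at 4 days, against 5392, 9318 and 5426 at 0 hour. Replicate 2 of the 0 hour group lay between the 4 day arrays and the other 0 hour arrays lay below them. M342 read 7708 and 7121 at 4 days, against 3864, 5406 and 2437 at 0 hour, and M218 read 4826 and 5175 at 4 days, against 2432, 3443 and 2030 at 0 hour. These features were alike in having both 4 day readings above every 0 hour reading, with ratios of 1.90 and 1.90.

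M162 read 4860 and 3672 at 4 days, against 2253, 3887 and 2751 at 0 hour, and the groups overlapped. M240, whose ratio of 1.28 was the nearest to 1, read 2361 and 3607 at 4 days, against 1626, 3085 and 2268 at 0 hour. The values of the groups were interleaved. M27 read 2130 and 1831 at 4 days, against 2471, 3545 and 1702 at 0 hour, a ratio of 0.77, with replicate 3 of the 0 hour group below both 4 day arrays. M166 read 1907 and 1774 at 4 days, against 3274, 5056 and 2423 at 0 hour, and it was the only one of the 12 with both 4 day readings below every 0 hour reading.

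**Figure D2:**
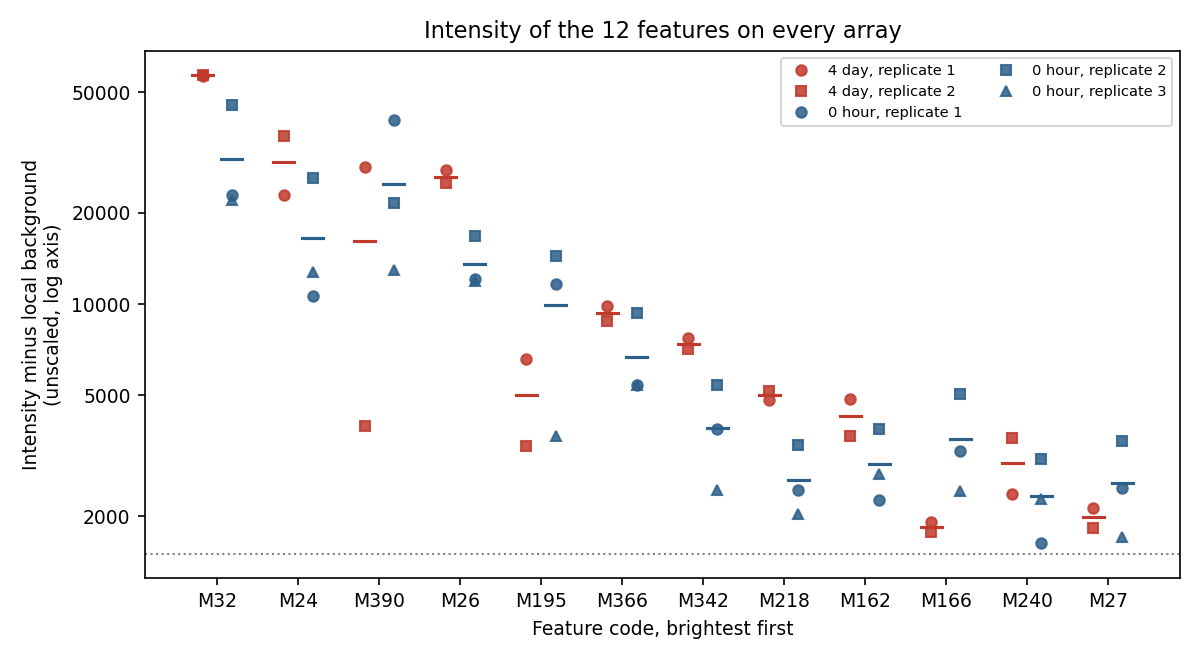
The y axis gives intensity minus local background on a log scale, without scaling between arrays, and the x axis gives the 12 features from the brightest to the dimmest by the mean over 5 arrays. Red points are the 2 arrays at 4 days, blue points the 3 arrays at 0 hour, bars are group means, and the dotted line marks 1500. Square symbols show that replicate 2 of the 0 hour group was the brightest 0 hour array for 11 of the 12 features, and the 4 day readings of M390 lie 7.16-fold apart.

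The mean over 5 arrays was lowest for M27, at 2336, and highest for M32, at 40791. Each probe has its own response, so brightness and rank describe the spots and not the relative number of molecules of different microRNAs. Across the 12 features the rank order of levels had a Spearman correlation of 0.83 to 0.94 between arrays of one group and 0.50 to 0.92 between arrays of different groups. The low end came from replicate 2 of the 4 day group, at 0.50, 0.64 and 0.69 with the 0 hour arrays. Replicate 1 of that group was at 0.83, 0.87 and 0.92. Without M390 the range between groups was 0.59 to 0.90. These coefficients describe 12 points that share probes and arrays and whose group means the rule held within 2-fold.

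The summed share of the 12 features was built from the intensities that chose them, and it is given as a description. They made up 15.8% and 13.4% of the summed intensity of all 406 microRNA features on the 4 day arrays, against 15.5%, 13.2% and 12.4% on the 0 hour arrays. The groups overlapped, but this rested on M390. Without M390 the share was 13.2% and 13.02% on the 4 day arrays, against 10.2%, 11.4% and 10.4% on the 0 hour arrays, with no overlap. M390 was left out after its values were seen, and 8 of the features that remained had a ratio above 1. Nothing is therefore read from this separation. The summed intensity itself was 175721 and 157319 at 4 days, against 119079, 157941 and 82357 at 0 hour.

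The 12 features sat close to the thresholds at several points, and small differences decided membership. Just inside the minimum of 1500 were M240, with a lowest reading of 1626, and M27, with 1702. M60, at 1497, and M106, at 1430, lay just outside it with ratios of 0.57 and 1.19. At the lower ratio limit M195 (0.50) and M166 (0.51) were inside, and M254 (0.48) and M167 (0.38) were outside. At the upper limit M26 (1.94) and M342 (1.90) were inside, and M328 (2.03) and M23 (2.09) were outside.

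Without scaling, the readings of the 4 day and 0 hour arrays were fully separated for 5 of the 12 features. Among the 323 detected features 72.1% were separated in this way, 31.9% higher and 40.2% lower at 4 days. Because the ratio was used to pick the 12, nothing is read from their smaller share. The 5 separated features were M26, M32, M218 and M342, all higher at 4 days, and M166, lower at 4 days. For 10 of the 12 the ratio of the brightest to the dimmest 0 hour array was larger than the fold between the group means. That ratio among 0 hour arrays ran from 1.41 for M26 to 3.95 for M195 and exceeded 2 for 7 features. The rule capped the fold between the group means at 2, so the count of 10 was partly set in advance. Neither count was taken over all features. Between the 4 day arrays the gap had a median of 1.14-fold and exceeded 2-fold for 1 feature, M390. The gaps of the groups are not comparable, since a range over 3 arrays is wider than one over 2 by construction.

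Most of the features shared their brightest 0 hour array. Replicate 2 was the brightest 0 hour array for 11 of the 12 features, and for 288 of the 323 detected features (89.2%). M390 was the exception, brightest on replicate 1. The median intensity of the 406 features was 508 and 388 at 4 days, against 493, 652 and 493 at 0 hour. Replicates 1 and 3 thus had like medians, yet M195 and M390 differed widely between them. After quantile normalization these features still had the widest spread at 0 hour, with an SD of 0.82 and 0.89 on the log2 scale (n = 3 arrays). The CV over the 0 hour arrays had a median of 36.7% for the 12 features, 37.7% for the 46 abundant features and 25.6% for the 323 detected features.

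In the headers of the scanner files the experiment names of the arrays numbered 1 share a stem, and likewise those of the arrays numbered 2, so the ratio was also read within each of the 2 shared stems, with 1 array per group and no test. Between the arrays numbered 1 the 12 ratios ran from 0.57 to 2.47 with a median of 1.91. Between the arrays numbered 2 they ran from 0.18 to 1.503 with a median of 1.06. The 2 pairs thus placed the same features at different heights, and the arrays as a whole were shifted too. In the first pair the median over all 406 features was 508 at 4 days, against 493 at 0 hour. In the second it was 388, against 652. The counts that follow are of the 12 features, and the same counts over all features were not taken. A ratio within 2-fold was found for 8 features in the first pair, 9 in the second and 5 in both, and 10 of the 12 lay on the same side of 1 in both pairs. M162 was 2.16 in the first pair and 0.94 in the second, and M366 was 1.83 and 0.94. Within the second pair M390 was at 0.18, M195 at 0.24 and M166 at 0.35.

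The size of the ratios depended on the standard against which the arrays were scaled. The arrays also carry 8 features with a P code, bright on every array and not explained by the files. These had a median ratio of 1.71 between 4 days and 0 hour, from 1.45 to 2.05. Divided by that median, the 8 microRNA features with a ratio above 1 came to 0.75 to 1.14, and the 4 with a ratio below 1 came to 0.30 to 0.45. Dividing by 1 constant keeps the gap between the 8 and the 4 that the ratios already had, and moves only where 1 lies.

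The features were also read after background correction and quantile normalization, which gives all arrays one distribution of intensities. The values that follow are fitted log2 fold changes, 4 days over 0 hour, from limma, and negative values are lower at 4 days. M342 was at 0.56 (SE 0.26), M218 at 0.41 (SE 0.20), M26 at 0.38 (SE 0.23), M32 at 0.36 (SE 0.22) and M24 at 0.28 (SE 0.26). M366 was at 0.11 (SE 0.24), M162 at -0.04 (SE 0.28) and M240 at -0.28 (SE 0.26), within about 1 SE of no difference, as was M24. The 4 features with an unscaled ratio below 1 had the lowest values, with M27 at -0.96 (SE 0.25), M195 at -1.37 (SE 0.55), M166 at -1.50 (SE 0.23) and M390 at -1.63 (SE 0.88). The large errors of M195 and M390 came with the uneven readings given above. Without replicate 2 of the 4 day group M390 was at -0.16, inside the range of the other 8, and M195 at -0.70, while without replicate 1 of that group they were at -3.16 and -2.09. Without replicate 1 of the 0 hour group they were at -1.09 and -0.97.

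After quantile normalization 9 of the 12 features had a fitted change under 2-fold, against 210 of the 323 tested features (65.0%). The median log2 fold change was 0.03 over the 12 and 0.15 over all tested features. M166 and M27 were called at an adjusted p under 0.05 in limma (two-sided, adjusted by Benjamini and Hochberg over 323 features), both lower at 4 days, which makes 2 of 12. Of all tested features 44.9% passed, 26.6% higher and 18.3% lower. Since the ratio chose the 12 features, neither the lower share among them nor the call of a single one is a result. The calls are given to describe the fit. If the arrays of a group are repeats of 1 library, the adjusted p may reflect technical spread only. The call of M27 was lost without normalization between arrays and with scaling to the median, where it stood at -0.24 and -0.31. It was also lost at -0.76 without replicate 2 of the 4 day group and at -0.95 without replicate 2 of the 0 hour group. That of M166 was lost without normalization between arrays. The calls themselves turned with the scaling. Without normalization 4 of the 12 were called, 3 higher and 1 lower at 4 days, beside 150 of the 323 tested features (102 higher and 48 lower). With scaling to the median 5 of the 12 were called, 4 higher and 1 lower, beside 182 of the 323 (116 higher and 66 lower).

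The arrays were scaled in 6 ways (quantile, none, median, 75th percentile, cyclic loess and the P-coded features). Across these, 5 features stayed under 2-fold each time, namely M24, M26, M162, M240 and M366. Without normalization M24 was at 0.92 and M26 at 0.98, close to the limit. The rule picked features by an unscaled ratio within 2-fold, so staying under 2-fold was partly set in advance. How many of all tested features did so in all 6 was not counted. M162 ran from -0.50 to 0.63, M240 from -0.67 to 0.47 and M366 from -0.51 to 0.55, so that their direction changed with the scaling while their size stayed small. M32, M218 and M342 stayed under 2-fold in 5 of the 6, the exception being no normalization, where they reached 1.02, 1.05 and 1.07. The fit averages background-corrected log2 values, while the ratios given earlier divided means of intensities. Fitted values and ratios therefore differ even without scaling, as for M32, whose unscaled ratio was 1.89. M32 was above 0 in all 6, from 0.08 to 1.02, whereas M24, M26, M218 and M342 were just below 0 with cyclic loess and above it in the other 5. M27, M166, M195 and M390 were below 0 in all 6, and with all 5 arrays M390 was past 2-fold in every one, from -2.05 to -1.05. That size rested on replicate 2 of the 4 day group, without which M390 was at -0.16 under quantile normalization. M166 ran from -1.99 to -0.84 and M195 from -1.88 to -0.81.

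**Figure D3:**
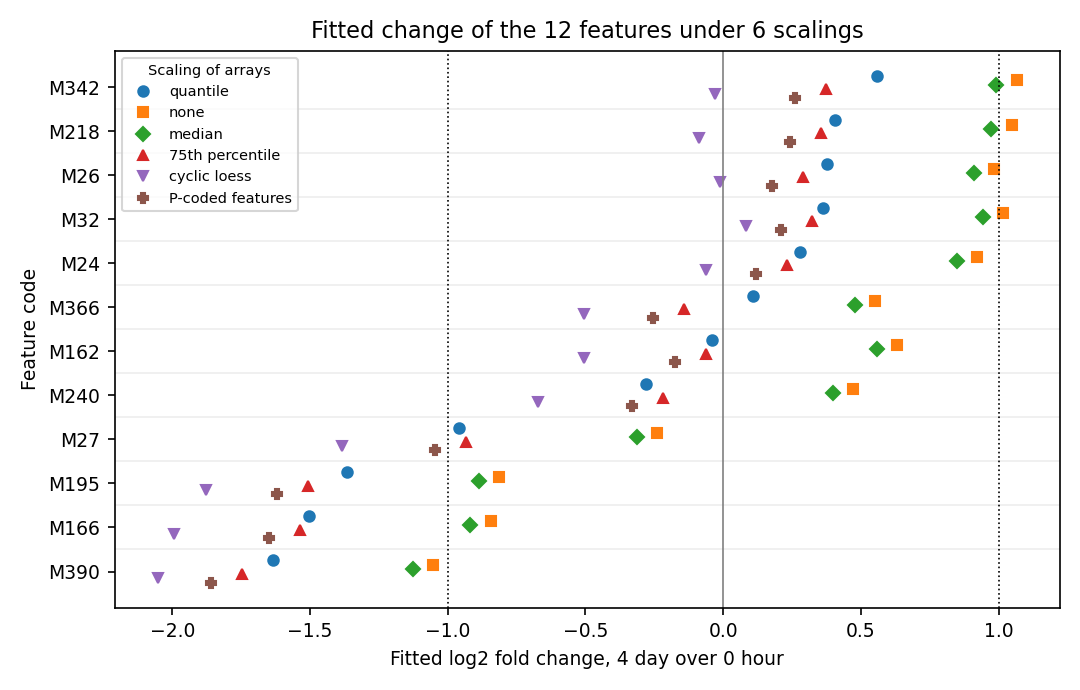
The x axis gives the fitted log2 fold change of each feature, 4 days over 0 hour, and each symbol is 1 of 6 ways to scale the arrays. The dotted lines mark 2-fold either way. M24, M26, M162, M240 and M366 keep all 6 symbols between them, and M390 has all 6 outside.

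Which features met the rule changed in the same manner. With quantile normalized intensities 31 features met it, 8 of them among the 12, and with scaling to the P-coded features 45 met it, again 8 of the 12. The 8 were the same in both, namely the features with a ratio above 1. Scaling to the array median gave 8 features, 7 of them among the 12. M162, M240 and M366 met the rule under each of these scalings and without any, and they also met it whichever single array was left out.

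The spread of the 3 spots within an array did not enter the rule, which used only their mean. Over the 60 values of 12 features on 5 arrays the 3 replicate spots had a median CV of 12.2%, from 2.21% to 52.1%. Per array the median was 12.3% and 11.6% at 4 days, against 10.4%, 12.5% and 11.8% at 0 hour, close to the 12.6% and 12.8%, against 11.4%, 10.8% and 12.2%, of all 406 features. A CV above 20% was found in 4 of the 60 values, of which 3 belonged to M390 and 1 to M26. The spots of M390 read 2510, 4076 and 5297 on replicate 2 at 4 days, against 10016, 20659 and 8156 on replicate 3 at 0 hour, where its CV was 52.1%. On replicate 1 its spots were even, with a CV of 12.1% at 4 days and 4.66% at 0 hour. The spots of M195, in contrast, had a CV of 3.60% and 4.74% at 4 days, against 4.41%, 8.78% and 12.7% at 0 hour, so its differences between arrays were not matched by differences within them.

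Part of the spread between spots repeated from array to array. For 4 of the 12 features (M32, M218, M240 and M366) the same spot was the dimmest on all 5 arrays, the middle one each time. This was so for 25 of the 46 abundant features (54.3%) and for 48 of all 406 (11.8%). M240 shows the size of it, as its middle spot read 1941 beside 2488 and 2655 on replicate 1 at 4 days, against 1358 beside 1842 and 1679 on replicate 1 at 0 hour. Local background was small beside these readings, at most 49.9 at any spot of the 12 features, and 0 of their spots carried the mark for spots to be ignored.

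**Figure D4:**
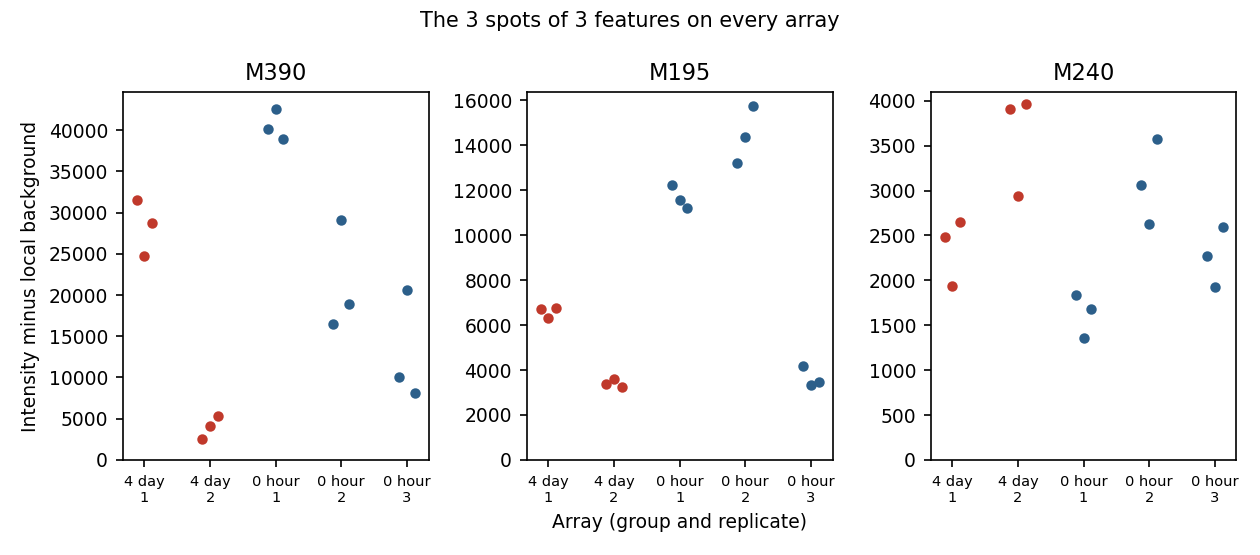
Each point is 1 spot, given as intensity minus local background on a linear axis from 0, and each group of 3 points is 1 array, with the 4 day arrays in red and the 0 hour arrays in blue. The spots of M390 are spread widely on replicate 2 at 4 days and on replicates 2 and 3 at 0 hour, those of M195 are close together on each array although the arrays differ, and the middle spot of M240 is the lowest on every array.

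The place of the features on the slide was not used by the rule either. Each array is printed as 4 blocks in 2 rows and 2 columns. Of the 12 features 10 lay in the second column of blocks (83.3%), 6 in its upper and 4 in its lower block, and 0 lay in the lower block of the first column. The second column held 30 of the 46 abundant features (65.2%) and 203 of all 406 features (50.0%). In the upper block of the second column, M342, M366 and M390 were printed in adjoining rows (15, 16 and 17) at the same place in the row. The 2 features in the first column were M27 and M195. These counts are small and were not tested.

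Codes next to each other are printed in different blocks, so a neighbour in code is not a neighbour on the slide. Leaving out M26 and M27, which are next to each other and both in the set, 21 codes lay directly before or after the 12 features. Of these, 3 were abundant on all arrays (14.3%), near the 11.3% of all 406. Several neighbours stood far from their partner. M166 had a ratio of 0.51, while M165 beside it had 7.73 and M167 had 0.38. M342 had a ratio of 1.90 and M343 had 0.12, with a mean of 500 at 4 days and 4011 at 0 hour. M366 had 1.39 and M367 had 5.12, while M32 had 1.89 beside 0.28 for M31 and 2.95 for M33. Ratios inside and outside the window thus stood side by side along the codes.

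M24, M26, M27 and M32 came from a stretch of codes that was dense in abundant features. Of the 18 codes from M15 to M32, a range chosen after its values were seen, 12 were abundant on all 5 arrays and 4 of those belonged to the set. The ratio of the 12 ran from 0.77 for M27 to 3.26, and 11 were above 1. M24 and M26, at 1.78 and 1.94, stood next to M23 and M25, at 2.09 and 2.73, on the other side of the upper limit.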

How the data were processed

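Each array was scanned as 1 Cy5 image and read with circles of fixed size, with no background subtracted, per the file headers, and the files deposited by the authors give the intensity of each of 1296 spots and of its background on a linear scale. In the deposited value table each intensity equals spot minus background, to within 5e-06. The sources used here do not give probe sequences or image software. Titles gave the groups and replicate numbers. The 12 features and all lists were chosen with earlier results of these data known.

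For the fits, spots were corrected with normexp (offset 50), put on log2, quantile normalized over 1218 microRNA spots and averaged per feature, leaving out spots marked to be ignored. The 323 features above the floor on at least 2 arrays were tested with limma 3.58.1 in R 4.3.3 (3 residual and 4.04 prior degrees of freedom). The steps were tested on simulated arrays with equal numbers of features raised and lowered 2-fold. That test does not cover changes that are uneven between the directions, so it says nothing on the choice of scaling. Deviations from group means correlated at 0.38 for the arrays numbered 1 and 0.15 for those numbered 2, but also at 0.25 for replicate 2 of the 4 day and replicate 3 of the 0 hour group. With 2 arrays at 4 days their deviations are exact opposites. These values are therefore not independent, and they cannot decide whether the replicate numbers pair the arrays. Features were named by extremes of level, ratio and spread and by nearness to a threshold. Code neighbours and the stretch of codes were chosen after their values were seen. Figures were drawn with matplotlib 3.10.9.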

Additional observations from a re-analysis of the deposited data

How the results depend on the processing

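Scaling to the P-coded features was chosen after seeing the data. The 12 features became 20 with a minimum of 1000, 4 with a window of 1.5-fold, 31 with quantile normalization and 45 with scaling to the P-coded features, and 8 to 17 with 1 array left out (8 without replicate 2 of the 0 hour group). The 145 calls over all features, 86 higher and 59 lower, were 74 to 166 with 1 array left out, 38 to 95 higher and 36 to 71 lower; they numbered 93 and 74 without replicate 1 and replicate 2 of the 4 day group, where the lone 4 day array is assumed to vary like the 0 hour ones. Features called higher were 50 with the P-coded features; those called lower were 120 with the 75th percentile and 143 with the P-coded features. The share called higher, 59.3%, was 47.6% with cyclic loess, 36.2% with the 75th percentile and 25.9% with the P-coded features. The count of 2 called members (0 higher and 2 lower) was 4 without normalization (3 higher and 1 lower), 5 with scaling to the median (4 higher and 1 lower), 4 with the P-coded features, 4 with the replicate number as a block (173 calls over all features) and 1 to 4 with 1 array left out (4 without replicate 1 and 1 without replicate 2 of the 4 day group, 1 without replicate 2 of the 0 hour group). Over all 323 features the calls numbered 150 without normalization, 182 with scaling to the median and 193 with the P-coded features. The count of 9 under 2-fold stayed within 8 to 11 under every alternative run. The share of all tested features ran from 52.3% with the 75th percentile to 74.0% without background correction. With cyclic loess it was 69.3%, beside 8 of the 12. The features behind the count changed. M166, M195 and M390 were past 2-fold with quantile normalization, but M32, M218, M342 and M390 were without normalization. The median log2 fold change of the 12, 0.03, was 0.59 without normalization, 0.52 with scaling to the median, -0.50 with cyclic loess and -0.08 to 0.18 with 1 array left out. M27 and M166, the 2 called with quantile normalization, stayed below 0 under every alternative run, but M26, M218 and M342, called higher with scaling to the median, were at -0.01, -0.09 and -0.03 with cyclic loess. With 1 array left out M390 ran from -3.16 to -0.16 and M195 from -2.09 to -0.70. The causes were not tested beyond the scaling itself. Features below the floor have no reliable order, which does not touch the 12.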
